A study of Mus musculus with 14 samples.

Results

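The annexins are a family of calcium-dependent, phospholipid-binding proteins, and 10 of their genes (Anxa1, Anxa2, Anxa3, Anxa4, Anxa5, Anxa6, Anxa7, Anxa10, Anxa11 and Anxa13) were followed on all 14 arrays of a study of Cdx2 in gut stem cells. They are 10 of the 12 annexin genes that the array's annotation names and of the 18820 genes with 1 symbol on the array. They were chosen by name, Anxa10 with its gastric pattern already known from these data. The members and the gene lists used below were picked with earlier results of these data known. Their p-values and counts of calls therefore describe these samples and are not independent tests. Each gene was represented by its probe set of highest mean over the 14 arrays. Only Anxa6 and Anxa11 had another probe set, which averaged 3.56 and 4.31 on the log2 scale over the 14 arrays and was left out. The other annexins on the array, Anxa8 and Anxa9, are given beside them.

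Annexins bind negatively charged lipids on the cytosolic face of membranes when calcium rises, and take part in membrane repair, vesicle traffic and the linking of membranes to the cytoskeleton, often with small S100 proteins as partners. In the gut epithelium, ANXA13 is known from enterocytes, where it takes part in apical membrane traffic, whereas ANXA10, whose calcium-binding sites are largely lost, is known in human as a marker of the gastric mucosa. Cdx2, a homeobox protein, sets intestinal identity in the epithelium, and the study asked whether its loss turns intestinal stem cells into gastric ones.

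The sorted groups were Cdx2null SI SCs (n = 2), control Sto SCs (n = 2) and control SI SCs (n = 3), that is, Lgr5-EGFP-high stem cells (SCs) of small intestine (SI) or stomach (Sto) taken from clonal organoids. The other groups were whole organoids, of stomach in Sto medium (n = 1) or in SI medium (n = 2) and of small intestine in Sto medium (n = 1) or in SI medium (n = 3), written below as Sto organoids in Sto medium and so on. All mice were adults of a mixed C57Bl6j/CBA background, and every control carried a null and a floxed Cdx2 allele (Cdx2-/fl / Lgr5-EGFP), so that the controls also had only 1 intact copy. The Cdx2null cells came from the same genotype after tamoxifen-induced Cre had removed the floxed allele. That Cre is expressed from the Lgr5 locus, only Lgr5-expressing cells of the treated cultures could recombine, and each clonal line stems from a single cell. SI medium holds EGF, Noggin and R-spondin, and Sto medium adds Wnt3a, Fgf10 and gastrin. The sources used here do not say how many animals each group stands for, so p-values measure the spread between these samples, which may be partly technical.

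The arrays had log2 medians between 4.72 and 5.05. Epcam, an epithelial adhesion protein, lay between 10.76 and 11.67 on all of them, the leukocyte marker Ptprc between 3.75 and 4.33 and the endothelial marker Pecam1 between 3.39 and 4.24. Not all immune markers were flat, as Cd68 ranged from 5.19 to 10.36 (its values in sorted cells are given below). Lgr5 lay between 10.77 and 11.56 in the 7 sorted samples, between 9.29 and 10.28 in 5 organoid samples and at 4.20 and 4.32 in the Sto organoids that were kept in SI medium. Cdx2 was at 8.41 and 4.88 in Cdx2null SI SCs, 5.08 and 4.67 in control Sto SCs and 9.04, 10.05 and 8.94 in control SI SCs. Its probes include exons that the deletion leaves in place, which holds for both Cdx2null samples alike. The cause of the gap between these 2 samples was not tested. In the library labelled SI organoids in SI medium 1, Cdx2 was at 5.52, against 9.92 and 9.67 in the other libraries of that group, which goes against its label. Library 3 of the control SI SCs and library 3 of the SI organoids in SI medium had been exported in another number format than the other 12 arrays, and control SI SCs 1 and 3 and Sto organoids in Sto medium 1 came from males by Xist and Kdm5d, the rest from females.

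Promoter sequences are shown for Anxa10, Anxa1 and Anxa2, of which the first had, of the 10 listed genes, the widest difference upward in control Sto SCs, the next was called higher in those cells and Anxa2 did not pass the test in any comparison. The RefSeq table (GRCm38.p6) held 9 promoters of 7 of the 10 listed genes (those of Anxa3, Anxa6 and Anxa13 were not analysed here), each from 250 bases before the start to 50 bases after it, oriented along the gene. Capitals mark matches on either strand to 5 motifs. The letters searched for Cdx factors were TTTATG. Those for the stress- and growth-responsive factor AP-1 were TGANTCA, those for GATA factors were AGATAA, those for the Hippo pathway factor TEAD were GGAATG and those for the core promoter element known as the TATA box were TATAAA. No match overlapped another.
Anxa10, chr8:62123144-62123443, minus strand: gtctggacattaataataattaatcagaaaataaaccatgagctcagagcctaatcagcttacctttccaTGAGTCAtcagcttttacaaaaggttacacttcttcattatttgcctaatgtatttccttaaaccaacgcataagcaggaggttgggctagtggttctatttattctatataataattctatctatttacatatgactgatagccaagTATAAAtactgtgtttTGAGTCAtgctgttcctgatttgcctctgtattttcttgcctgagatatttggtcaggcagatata
Anxa1, chr19:20390622-20390921, minus strand: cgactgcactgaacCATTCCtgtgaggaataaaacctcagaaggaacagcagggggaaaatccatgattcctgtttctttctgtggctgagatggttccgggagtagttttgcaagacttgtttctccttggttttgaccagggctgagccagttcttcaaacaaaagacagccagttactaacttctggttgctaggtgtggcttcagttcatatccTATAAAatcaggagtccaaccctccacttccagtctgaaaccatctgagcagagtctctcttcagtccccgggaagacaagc
Anxa2, chr9:69453433-69453732, plus strand: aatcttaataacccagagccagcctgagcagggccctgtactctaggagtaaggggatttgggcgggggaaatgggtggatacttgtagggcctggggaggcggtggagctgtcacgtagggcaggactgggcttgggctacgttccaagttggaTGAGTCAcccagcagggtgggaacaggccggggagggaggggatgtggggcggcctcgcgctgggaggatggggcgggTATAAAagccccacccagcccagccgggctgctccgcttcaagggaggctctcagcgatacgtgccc

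The Anxa10 promoter held AP-1 letters at -180 to -174 and at -16 to -10 from the start and TATA letters at -32 to -27. The Anxa1 promoter held TATA letters at -32 to -27 as well and, on the opposite strand, TEAD letters at -236 to -231. The Anxa2 promoter held AP-1 letters at -95 to -89 and TATA letters at -17 to -12. Cdx letters were in 0 of the 9 promoters, none of them of Anxa13, against 11.85% of all 32851 promoters searched, with 1 chromosome left out of the search. AP-1 letters were in 2 of the 9 and 7.81% of all, TATA letters in 3 of the 9 and 13.62% of all, TEAD letters in 1 of the 9 and 14.66% of all and GATA letters in 1 of the 9 and 11.18% of all. These matches are descriptions of the letters alone.

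The members differed widely in how far they varied. Anxa13 spanned 8.10 on the log2 scale over the 14 arrays, and 99.87% of the 18820 genes had a smaller range. Anxa1 spanned 6.54 and Anxa10 6.42, more than 99.23% and 99.15% of genes. Anxa4, an annexin common in epithelia, spanned 0.69, the least of the 10, and only 28.59% of genes had a smaller range.

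**Figure D1:**
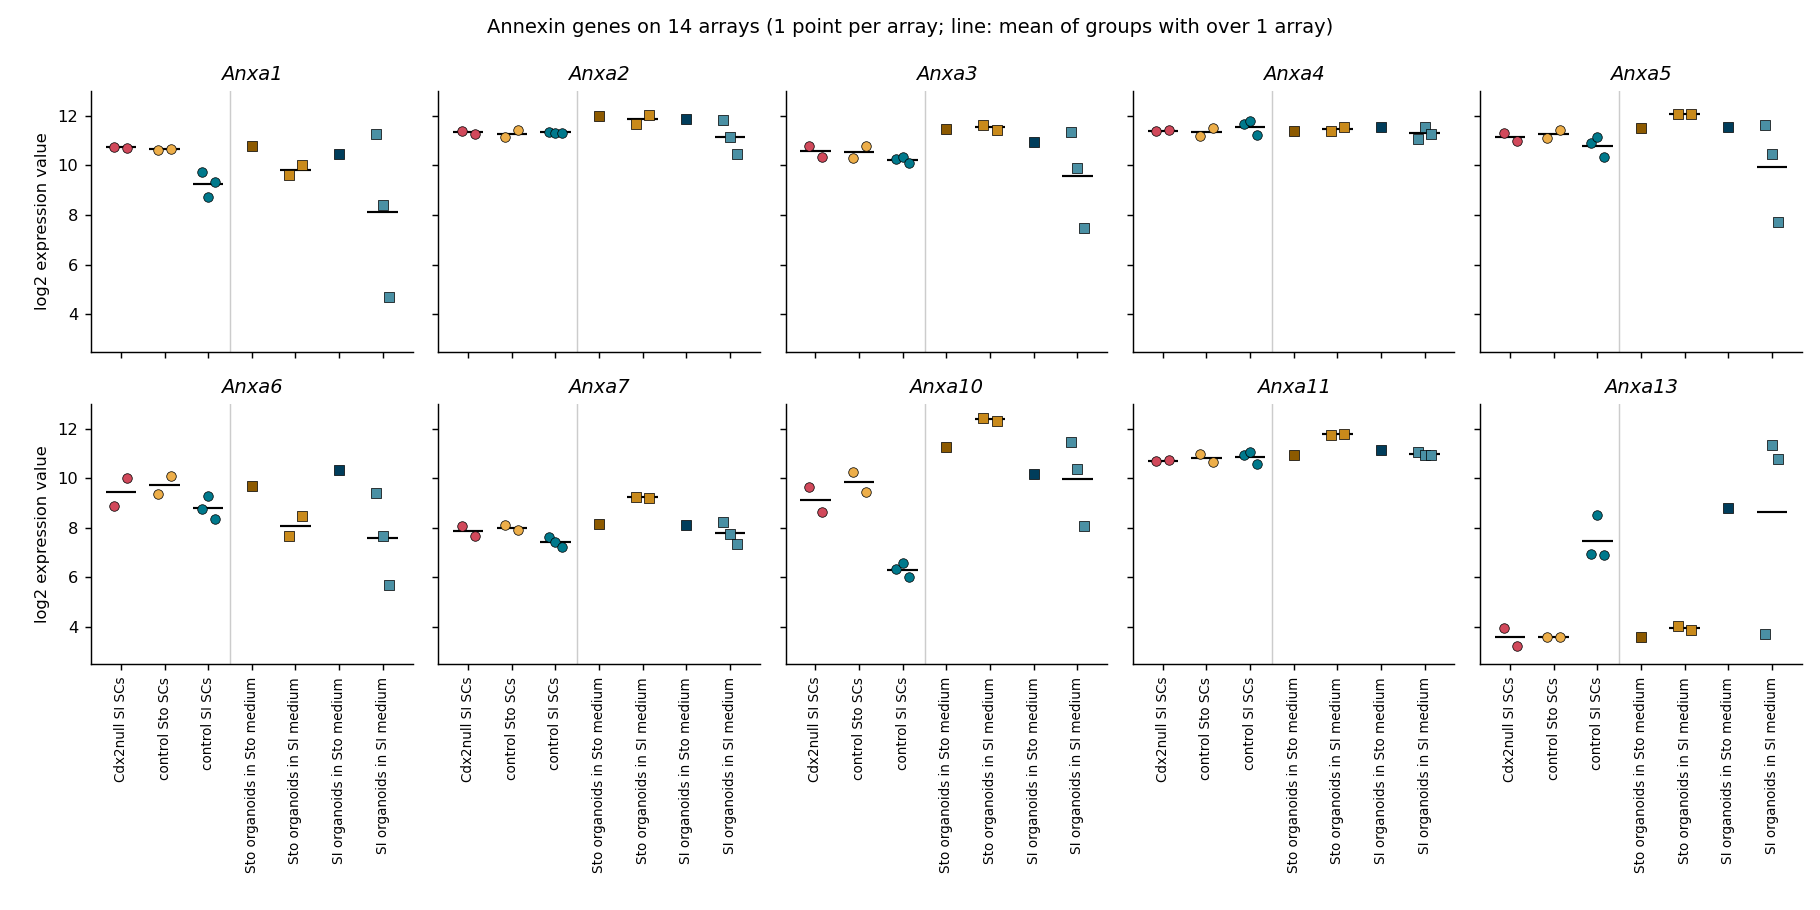
Log2 expression value of each of the 10 annexin genes in the 7 groups, 1 point per array (circles: sorted SCs; squares: whole organoids), with a line at the mean of groups of more than 1 array. Anxa10 lies between 6.02 and 6.58 in control SI SCs and at 8.06 or more on all other arrays, and Anxa13 reaches 6.89 or more only in control SI groups.

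Anxa10 (probe set 10578857) was at 9.64 and 8.63 in Cdx2null SI SCs, 10.24 and 9.45 in control Sto SCs and 6.33, 6.58 and 6.02 in control SI SCs. In organoids it was at 11.26 in Sto medium and 12.44 and 12.32 in SI medium for stomach, and at 10.16 in Sto medium and 11.44, 10.39 and 8.06 in SI medium for small intestine. By group mean the order was Sto organoids (SI medium, then Sto medium), SI organoids (Sto medium, then SI medium), control Sto SCs, Cdx2null SI SCs and control SI SCs. The 4 groups between Sto organoids and control SI SCs overlapped their neighbours, and Sto organoids in SI medium and control SI SCs overlapped none. Anxa10 was thus not limited to stomach samples. Whole SI organoids in either medium, including both libraries with high Cdx2 in SI medium, lay above every control SI SC array.

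Anxa13 (probe set 10428814) ran the other way. It was at 3.95 and 3.24 in Cdx2null SI SCs, 3.59 and 3.61 in control Sto SCs and 6.96, 8.52 and 6.89 in control SI SCs. Sto organoids lay between 3.58 and 4.03 in both media, SI organoids in Sto medium at 8.81, and SI organoids in SI medium at 3.74, 11.34 and 10.77. The lowest of these last values was that of the library labelled SI organoids in SI medium 1, which had the Anxa13 level of stomach samples and an Anxa10 level of 11.44 beside that of Sto organoids. The groups thus formed a high set, which overlapped among themselves (SI organoids in both media and control SI SCs), and a low set (Cdx2null SI SCs and all stomach groups) at 3.24 to 4.03. The low values lay under the median of every array (4.72 to 5.05). They lay within or under the ranges of Ptprc (3.75 to 4.33) and Pecam1 (3.39 to 4.24) over all 14 arrays. On single arrays some lay above these markers, as in Cdx2null SI SCs 1 (3.95). Anxa13 was thus not told apart from background in the low set. The low values have no order, and the Anxa13 differences from the high set given below are lower bounds.

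**Figure D2:**
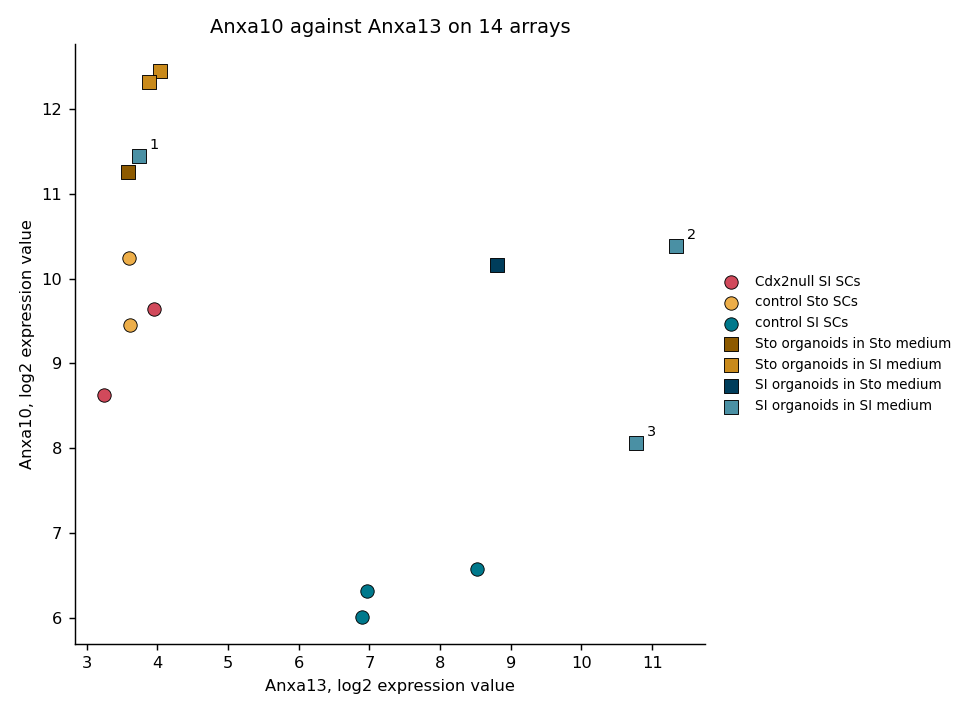
Anxa10 against Anxa13 (log2 expression values), 1 point per array, with the 3 libraries of SI organoids in SI medium numbered. Control SI SCs have Anxa13 of at least 6.89 with Anxa10 of at most 6.58, stomach samples and Cdx2null SI SCs have Anxa13 of at most 4.03, and SI organoids other than number 1 have both genes at 8.06 or more.

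Loss of Cdx2 was examined first, in Cdx2null SI SCs against control SI SCs (limma over 18820 genes, called at a Benjamini-Hochberg adjusted p under 0.05 and a fold of at least 2). Anxa13 fell by 3.86 on the log2 scale (SE 0.50, adjusted p = 0.0143 by limma), with both Cdx2null samples below all 3 controls. It was the only call among the 9 annexins tested, 0 higher and 1 lower, in a comparison that called 0.93% of all genes higher and 0.595% lower. In bulk RNA, fewer cells with a transcript and less transcript per cell cannot be told apart. Without Cdx2null SI SCs 2 the difference was -3.51 and the call was lost (adjusted p = 0.102 by limma), and with replicate number as a block it was -4.15 (adjusted p = 0.0571). With sex as a term it was -4.93. Both Cdx2null samples were female, so that fit set them against control SI SCs 2 alone. This array was the only female among the SI controls and had their highest value.

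Anxa10 was 2.82 higher in Cdx2null SI SCs than in control SI SCs on the log2 scale (SE 0.36, 7.07-fold). This difference is a description, because the gene was listed for it, and no p is given. It was 2.32 to 3.33 higher when single samples were left out, and both Cdx2null samples lay above all 3 controls. Anxa1, a glucocorticoid-induced annexin and ligand of formyl peptide receptors, was at 10.74 and 10.71 in Cdx2null SI SCs, against 9.73, 8.71 and 9.32 in control SI SCs. The groups did not overlap, and the difference of 1.47 (SE 0.28) missed the threshold (adjusted p = 0.0615 by limma). It was called in 4 of the 14 alternatives, among them the fit with a sex term (2.01). That fit rests on 1 SI control, control SI SCs 2, the only female one and the lowest in Anxa1 (8.71).

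The remaining 7 annexins gave differences between -0.16 and 0.65, none past the test. Anxa6, an annexin with a duplicated core, was at 8.90 and 10.02 in Cdx2null SI SCs and at 8.77, 9.30 and 8.35 in control SI SCs, a difference of 0.65 (95% interval -0.34 to 1.64). Anxa7, first described as synexin, a membrane fusion protein, differed by 0.45 (interval from just under 0 to 0.89). Anxa3 and Anxa5 (the phosphatidylserine binder used to stain dying cells) differed by 0.34 each (intervals -0.15 to 0.82 and -0.27 to 0.95). Anxa4 and Anxa11 differed by -0.16 and -0.15 and Anxa2 by nearly nothing, with the 3 intervals inside -0.64 to 0.34. Anxa2, the partner of S100a10 at the plasma membrane, lay between 11.25 and 11.40 in Cdx2null SI SCs and between 11.31 and 11.36 in control SI SCs. Anxa5 lay between 10.97 and 11.30 in Cdx2null SI SCs and between 10.35 and 11.14 in control SI SCs. The lowest Cdx2null values of Anxa3 and Anxa7 (10.34 and 7.69) lay just above the highest control values (10.32 and 7.63), and the groups overlapped for the rest of the 7. How many of all genes separate in this way was not counted, so nothing is read from it. The median of the 9 tested annexins was 0.34, beside 0.03 over all genes.

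Control Sto SCs were then compared with control SI SCs, the organ difference that the Cdx2null cells are set against. The control SI SC arrays are the same in both comparisons, so the values are given side by side and not as repeats. Anxa13 fell by 3.86 (SE 0.50, adjusted p = 0.0115 by limma) and Anxa1 rose by 1.39 (SE 0.28, 2.62-fold, adjusted p = 0.0481). These were 1 call higher and 1 lower among 9 annexins, where 1.94% of all genes were called higher and 0.914% lower. Anxa1 lay at 10.63 and 10.66 in control Sto SCs, above all control SI SCs, but its call was lost in 9 of the 14 alternatives, among them quantile normalisation (1.24, adjusted p = 0.0862) and leaving out control SI SCs 3 (1.42, adjusted p = 0.118). Anxa13 lost its call without either control Sto SC sample (adjusted p = 0.0757 and 0.0711) and when all 14 arrays shared 1 spread (adjusted p = 0.502).

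Anxa10 was 3.53 higher in control Sto SCs (SE 0.36, 11.6-fold, described without a p). Anxa6 and Anxa7 differed by 0.91 (interval -0.07 to 1.90) and 0.57 (interval 0.12 to 1.02) and were not called (adjusted p = 0.370 and 0.187 by limma). The other 5 annexins gave differences between -0.21 and 0.47, and the median of the 9 tested was 0.31, beside 0.03 over all genes.

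**Figure D3:**
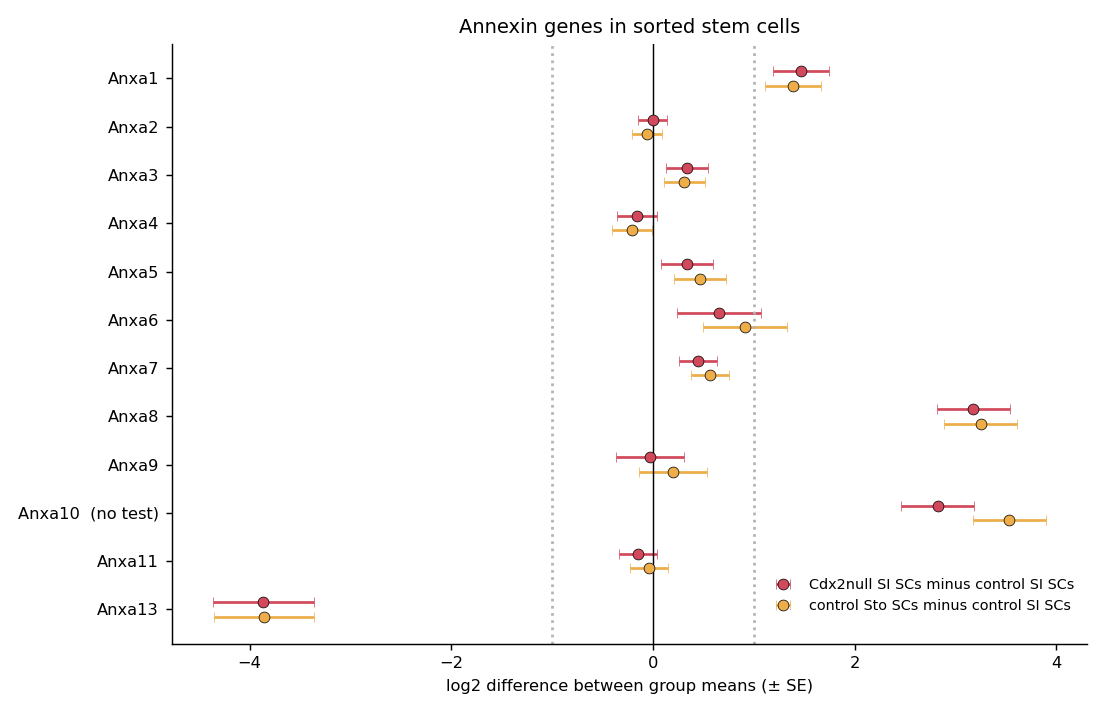
Log2 differences (± SE) of 12 annexin genes of Cdx2null SI SCs (upper point of each pair) and of control Sto SCs (lower point), each minus control SI SCs. Dotted lines mark a fold of 2, and Anxa13 lies at -3.86 in both, Anxa10 at 2.82 and 3.53 and Anxa8 at 3.18 and 3.25.

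Of the annexins outside the 10, Anxa8, known from stratified and squamous epithelia, was at 10.34 and 9.37 in Cdx2null SI SCs, 9.63 and 10.22 in control Sto SCs and 6.88, 6.93 and 6.22 in control SI SCs. It rose by 3.18 in Cdx2null SI SCs (SE 0.36, adjusted p = 0.00912 by limma) and by 3.25 in control Sto SCs (SE 0.36, adjusted p = 0.00653). Anxa9, whose calcium-binding sites are lost, differed by -0.03 and 0.20 and was not called. The mean of 6 squamous markers was 5.15 to 5.19 in Cdx2null SI SCs, 5.11 to 5.34 in control Sto SCs and 4.58 to 4.85 in control SI SCs, while the basal markers Krt5 and Trp63 stayed between 3.92 and 4.55 and between 3.96 and 4.36 on all 14 arrays. Of the 6, Krt4 was at 7.94 and 8.94 in Cdx2null SI SCs and 8.65 and 9.22 in control Sto SCs, against 5.91 to 7.70 in control SI SCs. Ivl (involucrin, a protein of the cornified envelope) was at 5.98 and 5.20 in Cdx2null SI SCs and 5.29 and 5.32 in control Sto SCs, against 4.12 to 4.76 in control SI SCs. Limma called 0 of the 6 in either comparison, and 2 of the 6 had an unadjusted p under 0.05 in each. The macrophage marker Cd68 was at 8.81 and 9.18 in Cdx2null SI SCs and 10.26 and 10.36 in control Sto SCs, against 8.51 to 8.70 in control SI SCs. It rose by 1.71 in control Sto SCs (adjusted p = 0.00374 by limma). That was the 1 call among 7 immune markers there, where 1.94% of all genes were called higher. Of the 7, 3 lay above 0 and 4 below it, with a median of -0.05. The part of squamous and immune cells in the annexin values was not tested.

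Cdx2null SI SCs and control Sto SCs were compared directly. None of the 10 annexins was called by limma or by the methods' t-test, 0 had an unadjusted p under 0.05, and 0% of all genes were called in this comparison, with 286 of the 18820 at an unadjusted p under 0.05. Anxa10 was 0.71 lower in Cdx2null SI SCs (SE 0.40, interval -1.65 to 0.23), and its 2 groups overlapped. Anxa13, dim in both groups, differed by -0.01, with an interval of -1.30 to 1.28, and Anxa1 by 0.08 (interval -0.64 to 0.80). The other 7 lay between -0.26 and 0.06, and the widest of their intervals, that of Anxa6, ran from -1.34 to 0.82. With 2 samples a group, the intervals of Anxa6, Anxa10 and Anxa13 leave room for a difference of 2-fold or more.

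Whole Sto organoids were compared with SI organoids with medium as a term. None of the 9 annexins tested was called, nor was any gene on the array (0%), with 2 of the 9 and 2595 of all genes at an unadjusted p under 0.05, and the methods' t-test called 0 of the 9 after adjustment and 1 before it. Anxa13 was 4.83 lower in Sto organoids with an SE of 1.89 (adjusted p = 0.349 by limma), with the library labelled SI organoids in SI medium 1 at 3.74 among the SI organoids. Without that library Anxa13 fell by 6.48 (adjusted p = 0.00346), a call made of 1.19% of all genes in that direction, and without libraries 1 and 3 of the group it fell by 6.46 (adjusted p = 0.0412). Anxa10 was 2.03 higher in Sto organoids (SE 0.81, no p), 2.47 without the library labelled SI organoids in SI medium 1 and 1.34 without SI organoids in SI medium 3.

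Anxa7 was at 8.14 in Sto medium and 9.23 and 9.22 in SI medium for Sto organoids, against 8.12 in Sto medium and 8.25, 7.73 and 7.34 in SI medium for SI organoids. Its difference of 1.03 (SE 0.35) was not called (adjusted p = 0.308 by limma). Anxa11, which binds the calcium sensor Pdcd6 and RNA granules, measured 11.75 and 11.79 in Sto organoids cultured in SI medium and lay between 10.58 and 11.15 on the other 12 arrays. In these 2 Sto organoid samples Lgr5 was at 4.20 and 4.32, the squamous marker mean at 6.62 and 6.94 and Ivl at 10.40 and 11.08, against at most 7.23 on the other arrays. Of the other squamous markers, Krt4 averaged 11.04, while Krt5, Trp63, Krt14 and Krt13 averaged 4.48, 4.29, 5.04 and 5.06 in the same samples. The gastric pit cell markers Gkn1 and Tff1 were at 12.47 and 12.45 and at 12.95 and 12.92 in them, against at most 6.74 and 9.66 elsewhere, and Gkn2 and Muc5ac were at 12.40 and 12.45 and at 12.28 and 12.03. The squamous mean was 6.01 in Sto organoids in Sto medium, 5.75 in SI organoids in Sto medium and 3.96 to 5.77 in SI organoids in SI medium. The part of squamous and pit cells in the Anxa7, Anxa10 and Anxa11 levels was not tested.

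After Anxa13, Anxa1, Anxa3, Anxa5 and Anxa6 varied most among the 3 libraries of SI organoids in SI medium. Anxa1 was at 11.25, 8.41 and 4.71 in libraries 1, 2 and 3, Anxa3 at 11.35, 9.91 and 7.48, Anxa5 at 11.64, 10.47 and 7.70, and Anxa6 at 9.40, 7.66 and 5.68. Library 3 had the lowest value of all 14 arrays for 5 of the 10 annexins (Anxa1, Anxa2, Anxa3, Anxa5 and Anxa6), while Anxa4 was at 11.27 there, between the 11.08 and 11.57 of libraries 1 and 2, and Anxa11 at 10.92, beside 11.06 and 10.93. Sto organoids had an Anxa1 of 10.77 in Sto medium and 9.61 and 10.01 in SI medium. The origin differences of Anxa1, Anxa3 and Anxa5 (1.28, 1.53 and 1.49) shrank to 0.09, 0.77 and 0.66 without library 3, with library 1 kept. They rose to 2.27 and 2.06 for Anxa1 and Anxa3 without library 1, whose Cdx2 level goes against its label. With SI medium arrays only, that of Anxa5 was 2.14. They were called in 0 of 17 alternatives.

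**Figure D4:**
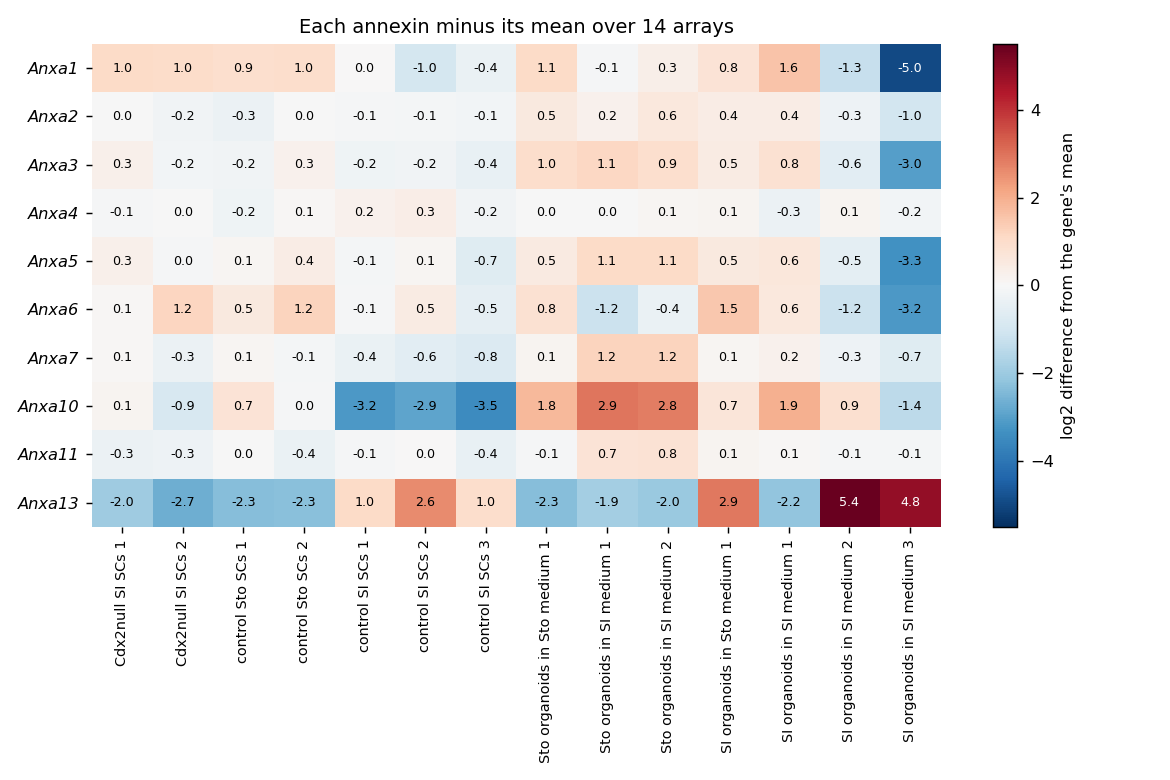
Each annexin's log2 value minus its own mean over the 14 arrays, with arrays in columns and genes in rows (red: above the mean, blue: below it). SI organoids in SI medium 3 holds the lowest values of Anxa1, Anxa2, Anxa3, Anxa5 and Anxa6, and control SI SCs hold the lowest of Anxa10.

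The medium was compared over the 7 organoid arrays with origin as a term, with only 1 array of each origin in Sto medium. None of the 10 annexins and no gene on the array (0%) was called by limma, with 0 of the 10 and 1816 of all genes at an unadjusted p under 0.05, and the methods' t-test called 0 of the 10. Anxa6 had the widest difference, 2.20 higher in Sto medium (SE 0.96, adjusted p = 0.545). It was at 9.66 in Sto medium against 7.65 and 8.46 in SI medium for Sto organoids, and at 10.31 in Sto medium against 9.40, 7.66 and 5.68 in SI medium for SI organoids, so that the media did not overlap within either origin. Anxa1 differed by 1.68 (SE 1.63) and the other 8 by between -0.42 and 0.71.

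Sorted SCs were compared with whole organoids as the mean of the Sto and SI differences. Medium was a term, and all sorted samples were counted as Sto medium. The study describes its sorted groups as cultured in gastric conditions. The sample titles name no medium for sorted cells, so it is not known sample by sample. All 10 fitted differences were below 0, with a median of -0.64 beside -0.01 over all genes, and none was called (0.0266% of all genes were). Anxa10 differed most, by -2.63 (SE 0.73, adjusted p = 0.340 by limma), the only member with an unadjusted p under 0.05, and the methods' t-test called 1 of the 10 before adjustment and 0 after it. Without libraries 1 and 3 of SI organoids in SI medium the Anxa10 difference was again -2.63 and was called (adjusted p = 0.0306), where 0.122% of all genes were called lower. It was also called without a medium term (-2.93, adjusted p = 0.0323), a fit in which Anxa1 and Anxa6 turned to 0.53 and 0.83 above 0, neither called. The arrays in which the gastric pattern of Anxa10 was known enter these fits, so its calls here are descriptions. Within small intestine alone the difference was -3.39 and within stomach alone -1.88, neither of them called (adjusted p = 0.261 and 0.926). SCs were sorted for Lgr5-EGFP and organoids were not, and dissociation and sorting cannot be told apart from cell type here.

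The origin difference was also compared between sorted cells and organoids. Anxa10 differed by 3.53 between Sto and SI SCs and by 2.03 between Sto and SI organoids, and the difference between these differences was 1.50 (SE 1.03, adjusted p = 1.00 by limma). It is built from 2 contrasts given without a p because Anxa10 was listed for them, so it too is a description. None of the 10 annexins was called, 0 had an unadjusted p under 0.05 and 0.00531% of all genes were called. The corresponding difference was 0.97 (SE 2.29) for Anxa13 and 0.10 (SE 1.78) for Anxa1.

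Partners of the annexins were followed from a list of 14 genes, of which 11 were measured, and limma called 0 of the 11 in any of the 7 comparisons, with 0 to 3 of them at an unadjusted p under 0.05 in each, beside 286 to 2936 of all 18820 genes. S100a10, which forms a tetramer with Anxa2, differed by 0.10 in Cdx2null SI SCs (SE 0.13) and by -0.16 in control Sto SCs (SE 0.13), each against control SI SCs. Among organoids it was 0.87 higher in Sto than in SI medium (SE 0.19, unadjusted p = 0.00387, adjusted p = 0.387 by limma), and it was 0.63 lower in sorted SCs than in organoids (SE 0.15, adjusted p = 0.281). In Sto against SI organoids, S100a10 differed by -0.49, S100a11 by 0.32 and S100a6 by 1.70 (SE 0.17, 0.37 and 1.13), and in Cdx2null against control Sto SCs by 0.26, 0.04 and 0.41. S100a11, a partner of Anxa1, differed by 0.36 in Cdx2null SI SCs and 0.31 in control Sto SCs (SE 0.15 each), and S100a6, which binds Anxa2 and Anxa11, by 0.71 and 0.30 (SE 0.25 each). S100a6 had its lowest value, 7.22, in SI organoids in SI medium 3, the library that also held the lowest Anxa1 and Anxa2. Of 12 genes of membrane repair and scission, among them the ESCRT subunits that act with annexins at wounded membranes, 0 were called in either comparison with control SI SCs, with 3 of the 12 at an unadjusted p under 0.05 in each, beside 2180 and 2936 of the 18820 genes.

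A list of 9 genes known from injured and fetal-like gut epithelium, of which 5 were measured, was read beside Anxa1, which is itself known from such epithelium. In Cdx2null SI SCs against control SI SCs, 3 of the 5 rose (0.93% of all genes did): Gja1, a gap junction protein, by 3.79 (SE 0.41, adjusted p = 0.00773 by limma), Msln, the surface protein mesothelin, by 1.93 (SE 0.27, adjusted p = 0.0203), and Clu, a secreted chaperone, by 1.01 (SE 0.16, adjusted p = 0.0357). In control Sto SCs 2 of the 5 rose (1.94% of all genes did), Gja1 by 3.25 (SE 0.41, adjusted p = 0.0103) and Msln by 1.92 (SE 0.27, adjusted p = 0.0150). Clu differed by 0.98 there (SE 0.16, 1.97-fold, adjusted p = 0.0290), just under the fold of 2. Il1rn and Ereg were not called in either. Both had lower means in Cdx2null SI SCs (7.7 and 3.27) than in control SI SCs (7.9 and 3.64). In control Sto SCs, Il1rn was lower (7.39) and Ereg higher (4.08). In the other 5 comparisons 0 of the 5 were called.

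Across the 14 arrays, Anxa3 and Anxa5 had the most alike profiles of the family (Pearson r = 0.98, and 0.92 without libraries 1 and 3 of SI organoids in SI medium). Anxa7 and Anxa10 had r = 0.86 (0.87 without these libraries), and Anxa1 and Anxa13 had r = -0.76 (-0.77). The genes most like Anxa10 outside the family were Fam3b (r = 0.96), Gsta4 (0.95), Cdkn2b (0.95), Tmem98 (0.94) and Slc26a2 (0.94). Those most like Anxa13 were Myrfl (0.99), Ms4a10 (0.99), Olfm4 (0.98), Reg4 (0.98) and Prkg2 (0.98). These correlations describe 14 arrays that share groups and may share normalisation, and they carry no p.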

How the data were processed

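Each of 14 RNA samples was measured on 1 Affymetrix array (Mouse Gene ST 1.1). The authors deposited log2 values for 35556 probe sets, made with RMA-sketch, a method that corrects background and normalises arrays. Whether all 14 were normalised in 1 run is not known, as the differently exported arrays had lower upper quartiles. Background signal stays in the deposited values, so folds of dim genes are understated. All 14 columns matched a sample (0 unmatched) and were used as deposited. Probe sets were named by the platform annotation, and 18820 genes with 1 symbol were kept, each by its highest-mean probe set. Fits used limma 3.58.1 (lmFit, eBayes, 2-sided) in R 4.3.3, with Benjamini-Hochberg adjustment over all genes, and were tested on simulated data. Sorted samples were fitted together, organoids with origin and medium as terms, and the last comparisons on all 14 arrays. The methods' t-test, other normalisations, filters, a sex term, a replicate block and left-out samples were alternatives. Members and lists were chosen with earlier results of these data known. All listed annexins are named, with called members of the partner, membrane repair and injured epithelium lists (up to 4 a direction), 3 S100 partners and the 5 genes most correlated with Anxa10 and with Anxa13. Other marker genes were named as checks. The number of arrays limits precision.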

Additional observations from a re-analysis of the deposited data

Results flagged for a closer look

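The medium effect (Sto medium minus SI medium) on Anxa11 ran in opposite directions by origin. It was -0.83 in Sto organoids, where the array in Sto medium lay below both arrays in SI medium, and 0.18 in SI organoids, where it lay above all 3. The 2 effects differed by -1.01 on the log2 scale. This difference was not tested, and it rests on 1 array of each origin in Sto medium.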

How the results depend on the processing

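The counts of called annexins stayed within 1.5 times the values above in 107 of 133 alternatives, and none of 1210 single-gene values reversed a call. Only called results, and Anxa10 differences of at least 2-fold given without a test, could count as reversed, so most of these values could not. Uncalled differences did change sign, and that of Anxa6 in Sto against SI organoids kept its direction in 11 of 17 alternatives. For Cdx2null against control SI SCs (1 call), there were 2 calls without dim genes and by the methods' t-test before adjustment. There were 0 with the replicate block, with 7 group means over all 14 arrays and by that t-test after adjustment. The fit with a sex term is left out of this list, as it rests on 1 control SI SC array. Leaving out 1 sample gave 0 to 2. For control Sto against control SI SCs (2 calls), there was 1 call under quantile normalisation, median centring, without the arrays exported differently, with the replicate block and with only the groups compared, and 0 with 7 group means and by the adjusted t-test. Leaving out 1 sample gave 0 to 2. For Sto against SI organoids (0 calls), leaving out 1 sample gave 0 to 1, and 1 call was made without libraries 1 and 3 of SI organoids in SI medium (chosen after seeing the data) and by the unadjusted t-test. For sorted SCs against organoids (0 calls), 1 call (Anxa10) was made with 7 group means, without the same libraries, without a medium term (both chosen after seeing the data) and by the unadjusted t-test. The causes were not tested. Same-numbered sorted samples had deviations from their group means that correlated at 0.07 to 0.40, over 2 shared numbers. In a group of 2 samples these deviations mirror each other, so the values for the 2 numbers do not repeat each other independently. Control SI SCs 3, of another number, correlated at 0.29 with control Sto SCs 1 and at 0.23 with Cdx2null SI SCs 1. The labels do not say what a number marks, so whether same-numbered samples share more than the number is not known. No paired analysis was possible for the medium because its groups share fewer than 2 numbers.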
